A study of Mus musculus with 62 samples.

Results

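Glutamine and glutamate metabolism was followed here through 9 genes, 5 enzymes (Glul, Glud1, Got1, Got2 and Gpt2) and 4 membrane carriers (Slc1a5, Slc38a1, Slc38a2 and Slc1a2), in RNA-seq of CD11b+ cells from mouse brain. The genes were taken by name from the gene count matrix, as 9 of its 53801 gene identifiers, and all 9 passed the filter on low counts that left 19865 genes for testing. The matrix holds 62 libraries in 16 groups of 3 to 5. The series title calls the cells microglia, the resident macrophages of the brain, and CD11b is a surface protein that these share with other myeloid cells.

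The 16 groups combine 4 genotypes with 3 ages. WT is wild type, NLRP3 lacks Nlrp3 (NLRP3-/-), APPPS1 carries the APP/PS1 transgenes of an Alzheimer's disease model that forms amyloid plaques, and APPPS1_NLRP3 carries both changes. Each genotype was sampled at 4, 6 and 12 months of age (4m, 6m and 12m), and each has a further group at 12 months whose titles carry the tag Mxo4. What the tag stands for is not given in the sources used here, so Mxo4 and untagged libraries are kept apart. The promoter that drives the transgenes, the strain, and whether each library is a separate animal are not given in the sources used here, so p-values measure the spread between these libraries, which may in part be technical. Libraries are named by their group and by the last number of their title.

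Glutamine synthetase, encoded by Glul, joins glutamate and ammonia to glutamine, and glutamate dehydrogenase (Glud1) and the aminotransferases exchange glutamate with alpha-ketoglutarate, the entry point to the citric acid cycle. Got1 in the cytosol and Got2 in mitochondria move an amino group between glutamate and oxaloacetate, making aspartate, and together form part of the malate-aspartate shuttle, which carries reducing equivalents into mitochondria. In brain, astrocytes take up released glutamate mainly through Slc1a2 and return it to neurons as glutamine, while macrophages take up glutamine through carriers such as Slc1a5, Slc38a1 and Slc38a2 as fuel and as a nitrogen source.

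The median library had 18392142 counts and the deepest 27604393. With only 659 counts, APPPS1_6m replicate 21 was kept in the model but gives no level, so levels rest on 61 libraries. Low totals also mark NLRP3_12m replicate 45 (1394435) and APPPS1_12m replicate 41 (6187249), against at least 11484943 in the rest. APPPS1_12m_Mxo4 replicate 56 lay below all WT_12m_Mxo4 libraries for Slc1a5 and Slc38a1 and among them for Got1. Whether its label holds was not tested. Several results that rest on it are given with and without it, and the others with it only. Levels are in CPM, the usual count scaled to a common library size, here the size after TMM scaling. Nlrp3 itself stood at 60.4 to 271 CPM in the libraries with an intact gene and at most 2.27 CPM in the knockout libraries. The 8 microglial markers summed to 30259 to 44415 CPM and 12 astrocyte markers to 76.4 to 1033 CPM, with all 12 of the latter detected in every one of the 61 libraries. Sex, read from Xist and Y-linked genes, was female in 42 libraries and male in 19. At 12 months the untagged WT and APPPS1 libraries were all female and the untagged NLRP3 and APPPS1_NLRP3 libraries all male, so there sex and Nlrp3 loss cannot be told apart.

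The start regions of the 3 enzymes on which the transgene results turn are shown first: Got1 and Got2, which rose, and Glul, which fell. Each is 300 bases, 250 before and 50 after the RefSeq start, from GRCm38.p6 and written 5′ to 3′ on the strand of the gene. Got1 is at chr19:43524556-43524855 (minus strand), Got2 at chr8:95888352-95888651 (minus strand) and Glul at chr1:153899679-153899978 (plus strand). Capitals in Got1 mark bases 149 to 156, the 1 match found among the 5 motifs searched.
Got1: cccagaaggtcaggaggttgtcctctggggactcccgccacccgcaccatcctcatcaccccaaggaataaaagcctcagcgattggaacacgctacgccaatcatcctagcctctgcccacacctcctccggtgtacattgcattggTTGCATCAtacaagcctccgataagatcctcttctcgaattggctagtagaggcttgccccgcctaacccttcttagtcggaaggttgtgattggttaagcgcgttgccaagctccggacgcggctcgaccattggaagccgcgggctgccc
Got2: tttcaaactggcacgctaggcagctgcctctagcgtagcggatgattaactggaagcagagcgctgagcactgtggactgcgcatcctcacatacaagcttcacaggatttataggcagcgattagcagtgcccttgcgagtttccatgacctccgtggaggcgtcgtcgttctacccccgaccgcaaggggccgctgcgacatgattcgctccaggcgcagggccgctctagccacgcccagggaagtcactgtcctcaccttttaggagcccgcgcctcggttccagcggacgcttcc
Glul: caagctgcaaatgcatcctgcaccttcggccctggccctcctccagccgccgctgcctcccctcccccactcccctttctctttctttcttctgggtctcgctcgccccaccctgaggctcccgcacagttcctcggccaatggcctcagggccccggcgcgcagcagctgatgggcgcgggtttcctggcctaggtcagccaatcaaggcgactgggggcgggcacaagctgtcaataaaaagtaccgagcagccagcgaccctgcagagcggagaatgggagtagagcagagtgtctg

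The motifs searched on both strands were CACGTG, its core ACGTG, TGATGNAA (the kind of site bound by ATF4 with C/EBP proteins), GAGGAAG (the core bound by PU.1) and TGACGTCA. They occur in 7.15%, 19.6%, 3.97%, 13.6% and 1.79% of 32851 RefSeq promoters of the same length. In the window as printed, the Got1 match is the reverse complement of TGATGNAA, so the motif reads on the strand opposite to the gene. RefSeq promoters were at hand for 7 of the 9 genes, and none of the other 6 held any of these letters. The Glul window lies inside Teddm2, a gene on the opposite strand at chr1:153849542-153900228 that overlaps Glul by 285 bases. The library kit does not mark strand, so reads from that overlap cannot be assigned to either gene.

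Per kilobase of merged exons, Glul was the most abundant of the 9, with a median of 174 CPM per kb over the 61 libraries. Glud1 followed at 43.1 CPM per kb and Slc38a2 at 39.4 CPM per kb. Got1 stood at 17.2 CPM per kb and Got2 at 12.98 CPM per kb. The other 4 were lower, with Slc38a1 at 5.56, Gpt2 at 4.26, Slc1a2 at 3.58 and Slc1a5 at 2.20 CPM per kb. How much a gene varied did not follow this order. The highest of the 16 group means was 6.80 times the lowest for Slc1a2, 4.26 times for Slc1a5 and 3.34 times for Got1. The ratio was 1.74 for Glul, 1.502 for Slc38a2, 1.43 for Slc38a1, 1.39 for Got2, 1.35 for Gpt2 and 1.23 for Glud1, the steadiest member. When the 16 group means of a gene were put in order, neighbours mostly lay within their spread: of 15 steps, 2 exceeded the larger of the neighbours' SDs for Got1, 1 for Slc1a5 and 0 for the other 7 genes.

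With the APP/PS1 transgenes, Got1 rose from 6 months on in both Nlrp3 states, and Got2 rose in both in the untagged groups at 12 months. In the absence of Nlrp3 at 12 months, Slc1a5 rose in the Mxo4 groups and Slc38a1 in the untagged groups. DESeq2 called neither the 2 Got2 differences nor that of Slc38a1. Of the 8 fits that leave out 1 library, Got2 was called in 3 with Nlrp3 and 4 without it, and Slc38a1 in 2. Glul fell at 6 months and, untagged, at 12 months where Nlrp3 was intact (by DESeq2 also where it was lost). None of these differences was shown to differ between the Nlrp3 states. A gene is called here when its adjusted p is under 0.05 in the edgeR quasi-likelihood test, with p-values adjusted over all genes of that comparison. Lack of overlap between groups is given as a description only and does not stand in for a call. Groups of so few libraries can separate by chance, and the share of all genes that do so is not given here. Of 72 tests (9 genes in 8 comparisons), 12 were called, 10 higher and 2 lower, and 28 had an unadjusted p under 0.05. DESeq2 called 11. Glud1, Gpt2, Slc38a2 and Slc1a2 were called in none of the 8 by edgeR or DESeq2; of their 32 tests, 2 had an unadjusted p under 0.05, Glud1 and Slc38a2 in APPPS1 minus WT at 6m.

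In APPPS1 minus WT, 0 of the 9 genes were called at 4m, where 0.0252% of all genes were called. The counts were 2 at 6m (3.07%), 3 at 12m (18.1%) and 1 in the Mxo4 groups (5.1%). A refit without APPPS1_12m_Mxo4 replicate 56 called 4 in the Mxo4 groups. The share of all genes called in that refit is not given here, and the 5.1% is from the fit that includes the library. In APPPS1_NLRP3 minus NLRP3, 0 were called at 4m (0.0101% of all genes), 1 at 6m (8.14%), 3 at 12m (8.73%) and 2 in the Mxo4 groups (5.19%). At 4m 1 test in each comparison had an unadjusted p under 0.05, and DESeq2 called 0. At 12m in APPPS1 minus WT, the median log2 difference of the 9 genes was 0.12, against −0.07 over all genes tested; the matching medians without Nlrp3 were 0.06 and −0.05.

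**Figure D1:**
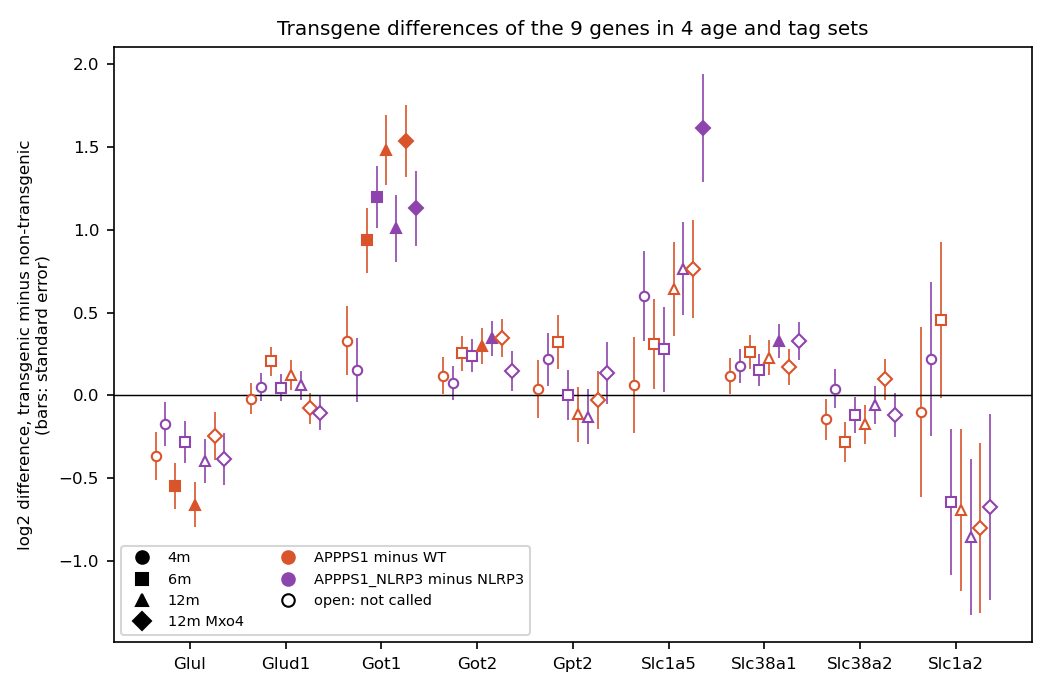
Log2 differences between transgenic and non-transgenic groups (y axis, bars are standard errors) for the 9 genes (x axis), with a symbol for each age or tag and a colour for each Nlrp3 state. Filled symbols passed the test: Got1 in 6 of 8 comparisons, Glul and Got2 in 2 each, and Slc1a5 and Slc38a1 in 1 each.

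Got1, the cytosolic aspartate aminotransferase (ENSMUSG00000025190, chr19:43499752-43524605), had means of 33.1 to 51.2 CPM in the 8 non-transgenic groups and rose in the transgenic groups from 6 months on. At 4m its level was 31.3, 31.99, 33.5 and 35.7 CPM in WT and 37.4, 43.7 and 45.7 CPM in APPPS1. The corresponding levels without Nlrp3 were 33.6, 35.5, 37.9 and 38.6 CPM in NLRP3 and 39.003, 39.97, 40.7 and 42.1 CPM in APPPS1_NLRP3. The transgenic libraries were the higher ones in both pairs, with no overlap. Neither difference was called, at 0.33 ± 0.21 and 0.15 ± 0.19 on the log2 scale, so a rise at 4m is not shown.

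At 6m Got1 stood at 29.1, 32.9, 35.3, 35.5 and 37.8 CPM in WT and 54.95, 66.3 and 74.1 CPM in APPPS1, a difference of 0.94 ± 0.19 (SE, adjusted p = 0.00227). Adding the first number of the titles to the model gave 0.76 (adjusted p = 0.104). In NLRP3 it was 34.8, 36.4, 36.8 and 42.9 CPM and in APPPS1_NLRP3 68.4, 76.8, 92.3, 92.8 and 99.2 CPM, a difference of 1.20 ± 0.19 (SE, adjusted p = 1.02e-05). No library overlapped in either pair, and the lowest transgenic library was well above the highest non-transgenic one.

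At 12m without the tag Got1 reached 79.4, 105, 108, 125 and 136 CPM in APPPS1, against 35.9, 36.4 and 44.1 CPM in WT, a difference of 1.48 ± 0.21 (SE, adjusted p = 6.47e-07). In APPPS1_NLRP3 it was 84.6, 89.95, 102 and 111 CPM, against 41.6, 43.1, 46.8 and 73.4 CPM in NLRP3, a difference of 1.009 ± 0.20 (SE, adjusted p = 0.000422). The groups stayed apart here too; the single high NLRP3 library is replicate 45, whose total is the lowest of the usable ones.

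In the Mxo4 groups, 3 of the 4 APPPS1 libraries held 105, 137 and 152 CPM of Got1, and the fourth, replicate 56, held 35.4 CPM. The WT libraries held 34.8, 35.3 and 38.9 CPM, so replicate 56 lay among them. The difference was 1.53 ± 0.22 (SE, adjusted p = 4.1e-06), and 1.84 (adjusted p = 1.26e-12) without replicate 56. Without Nlrp3, Got1 was 93.6, 104 and 111 CPM with the transgenes and 45.2, 46.7 and 52.5 CPM without them, a difference of 1.13 ± 0.23 (SE, adjusted p = 0.00064) and again no overlap.

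The second number in the titles takes 2 values in 31 libraries each, and the labels state that libraries were prepared in 2 batches without saying whether this number is the batch. Within number 1 alone the Got1 difference of APPPS1 minus WT was 0.90 (adjusted p = 0.259) at 6m and 1.56 (adjusted p = 0.00269) at 12m. Within number 2 alone it was 0.94 (adjusted p = 0.00112) and 1.55 (adjusted p = 1.92e-06). Without Nlrp3 the difference at 12m was 0.95 (adjusted p = 0.00841) within number 1 and 1.19 (adjusted p = 0.00512) within number 2. Got1 was higher in the transgenic group in these 6 fits, and the call at 6m was lost within number 1. In 3 of the 6 fits an arm rests on 1 usable library, assumed to vary like the other groups: APPPS1_6m replicate 22 and WT_12m replicate 40 in number 1, and NLRP3_12m replicate 42 in number 2. In the Mxo4 groups of APPPS1, number 2 holds replicate 56 alone, and the difference there was 0.02 (adjusted p = 1).

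Got2, the mitochondrial partner enzyme (chr8:95864134-95888547), moved the same way by less. At 12m it was 64.9, 66.3, 73.9, 77.3 and 82.03 CPM in APPPS1 and 53.6, 58.2 and 70.02 CPM in WT, a difference of 0.30 ± 0.11 (SE, adjusted p = 0.0469). Without Nlrp3 it was 62.8, 69.3, 84.2 and 86.4 CPM against 38.5, 60.4, 62.01 and 67.1 CPM, a difference of 0.35 ± 0.11 (SE, adjusted p = 0.0302). Both pairs overlapped, and the low NLRP3 library is again replicate 45. Got2 was higher with the transgenes in all 8 comparisons, by 0.07 to 0.35 on the log2 scale. Without TMM scaling the 12m means were 62.1 CPM in APPPS1 and 60.3 CPM in WT. Those without Nlrp3 were 69.4 CPM with the transgenes and 57.6 CPM without them. With RLE size factors in place of TMM neither 12m difference was called (adjusted p = 0.0951 and 0.0807), nor with DESeq2 (0.0694 and 0.0949). With the astrocyte marker sum as a further term neither was called (0.0788 and 0.0846). With Nlrp3 intact the call was also lost without APPPS1_12m replicate 35, 36 or 37 or WT_12m replicate 34 or 40 (adjusted p = 0.0622 to 0.198). In the knockout background it was lost without APPPS1_NLRP3_12m replicate 43 or 46 or NLRP3_12m replicate 42 or 45 (adjusted p = 0.0663 to 0.166). Without replicate 56 the Mxo4 difference in APPPS1 was 0.44 (adjusted p = 0.00582).

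The log2 ratio of Got1 to Got2 counts within a library is not changed by scaling, although its counting error is larger in a library of low depth. At 6m the geometric mean of the ratio was 0.929 in APPPS1 and 0.586 in WT, and 1.30 in APPPS1_NLRP3 and 0.684 in NLRP3. At 12m it was 1.498 in APPPS1 and 0.642 in WT. The groups of these 3 pairs did not overlap, and the smallest exact two-sided permutation p was 0.00794 (n = 5 against 4). Adjusted over 16 tests (2 ratios in 8 comparisons) the smallest value was 0.0952, so no ratio difference passed. The exact permutation p of each of these 3 pairs (0.0179, 0.00794 and 0.0179) was the smallest its group sizes allow. A larger difference could not have lowered it. The log2 ratio was higher in the transgenic libraries of these pairs by 0.67, 0.93 and 1.22. In the other pairs it was higher by 0.25 and 0.08 at 4m and 0.52 at 12m without Nlrp3. In the Mxo4 groups it was higher by 1.04 and 0.91 with and without Nlrp3. Of these 5 pairs, the last did not overlap and the other 4 did. The Mxo4 pair with Nlrp3 includes replicate 56. The 12m pair without Nlrp3 includes NLRP3_12m replicate 45, at 73.4 CPM of Got1 and 38.5 CPM of Got2.

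**Figure D2:**
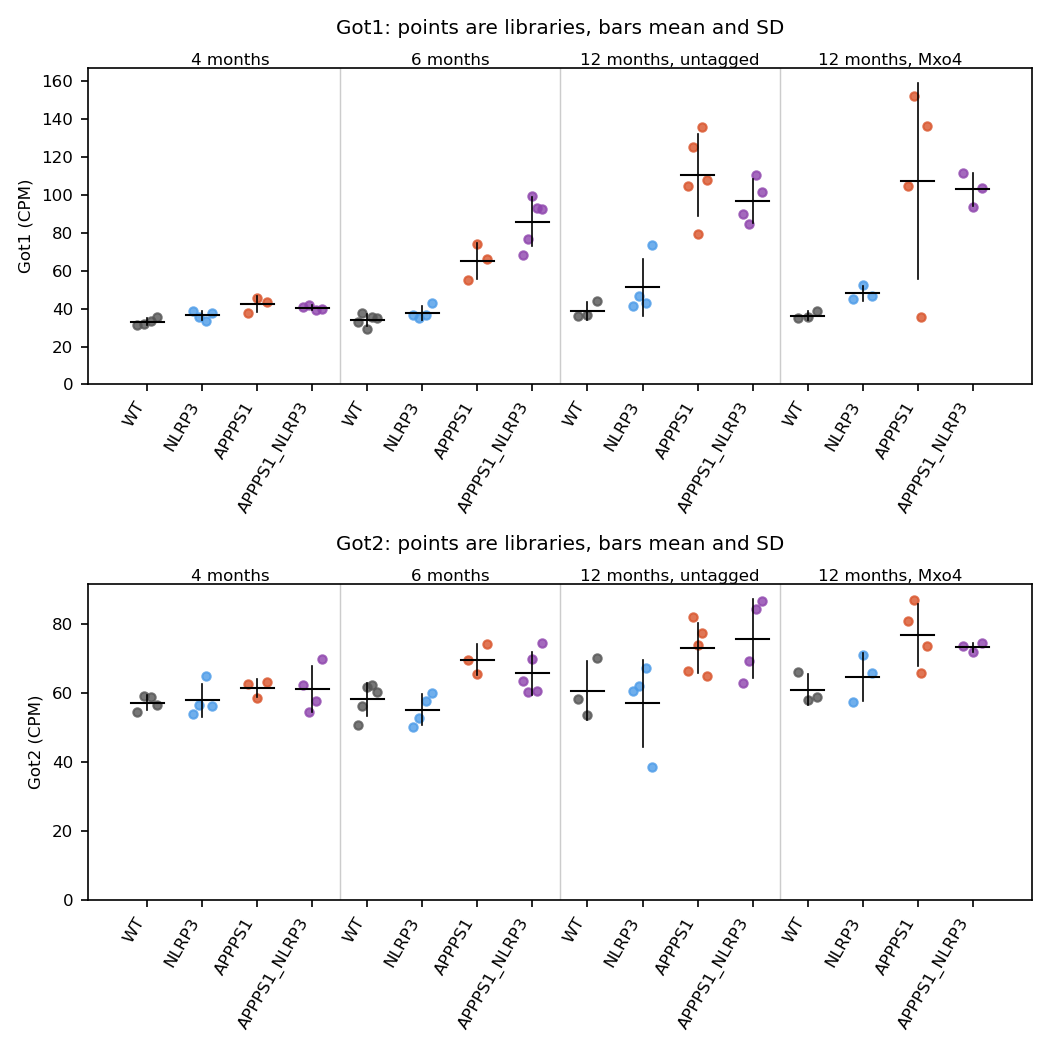
Got1 (top) and Got2 (bottom) in CPM on the y axis for each of the 16 groups on the x axis; points are libraries, horizontal bars are means and vertical bars SD. From 6 months on, Got1 in each transgenic group stands above the non-transgenic group of the same age, tag and Nlrp3 state. The exception is 1 Mxo4 library of APPPS1 at 35.4 CPM. The Got2 groups overlap more.

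Glul, glutamine synthetase (ENSMUSG00000026473, chr1:153899944-153909723), was lower with the transgenes in all 8 comparisons and was called in 2 by edgeR and in 4 by DESeq2. At 12m without the tag it was 323, 462, 471, 472 and 553 CPM in APPPS1 and 663, 686 and 712 CPM in WT, a difference of −0.66 ± 0.14 (SE, adjusted p = 0.000315). At 6m it was 377, 384 and 600.3 CPM in APPPS1 and 530.4, 546, 659, 713 and 848 CPM in WT, a difference of −0.55 ± 0.14 (SE, adjusted p = 0.0184). The untagged groups were separate at 12m, and the groups overlapped at 6m. In the Mxo4 groups Glul was 612 ± 76.2 CPM in APPPS1 and 726 ± 89.8 CPM in WT (SD, n = 4 and 3), with overlap. This difference was not called, and DESeq2 gave −0.27 (adjusted p = 0.294). Both fits include replicate 56, the highest of these APPPS1 libraries at 695 CPM.

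Without Nlrp3 the 12m libraries held 336, 366, 429.8 and 555 CPM with the transgenes and 476, 578, 595 and 622 CPM without them, and the difference was −0.40 ± 0.13 (SE, adjusted p = 0.0539). In the Mxo4 groups the APPPS1_NLRP3 libraries held 502, 514 and 521 CPM and the NLRP3 libraries 561, 742 and 821 CPM, a difference of −0.38 ± 0.16 (SE, adjusted p = 0.163). In edgeR neither was called, although the latter 2 groups did not overlap. DESeq2 called Glul without Nlrp3 at 12m, at −0.43 (adjusted p = 0.0163), and at 6m, at −0.40 (adjusted p = 0.0191), where edgeR gave −0.28 ± 0.13 (SE, adjusted p = 0.175). The 6m call in APPPS1 minus WT was lost in 6 alternatives, among them the fits without WT_6m replicate 20 (adjusted p = 0.0669), APPPS1_6m replicate 23 (0.13) or replicate 24 (0.13). Within number 2 of the second title number the 12m difference was −0.78 (adjusted p = 0.000504); within number 1, where WT_12m is replicate 40 alone, it was −0.51 (adjusted p = 0.316).

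Glud1, glutamate dehydrogenase (chr14:34310727-34345265), moved little: its group means ran from 162 CPM in WT_6m to 199 CPM in NLRP3_12m_Mxo4. Its 8 transgene differences ran from −0.11 to 0.20 on the log2 scale, and at 12m the 95% interval in APPPS1 minus WT was −0.05 to 0.30. The ratio of Glul to Glud1 counts averaged 2.38 in APPPS1 and 3.87 in WT at 12m, where the libraries did not overlap. It was lower with the transgenes in all 8 comparisons, and the smallest adjusted value of the exact permutation tests was 0.143.

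Gpt2, the mitochondrial alanine aminotransferase (chr8:85492576-85527560), lay between 21.6 and 29.1 CPM in the group means and was not called with the transgenes. Its widest transgene difference was 0.32 ± 0.16 (SE, adjusted p = 0.293) at 6m in APPPS1 minus WT. The 3 APPPS1_6m libraries held 27.4, 27.7 and 32.3 CPM and the 5 WT_6m libraries 20.4, 21.998, 24.03, 25.6 and 25.7 CPM, so these groups did not overlap although the test did not pass.

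**Figure D3:**
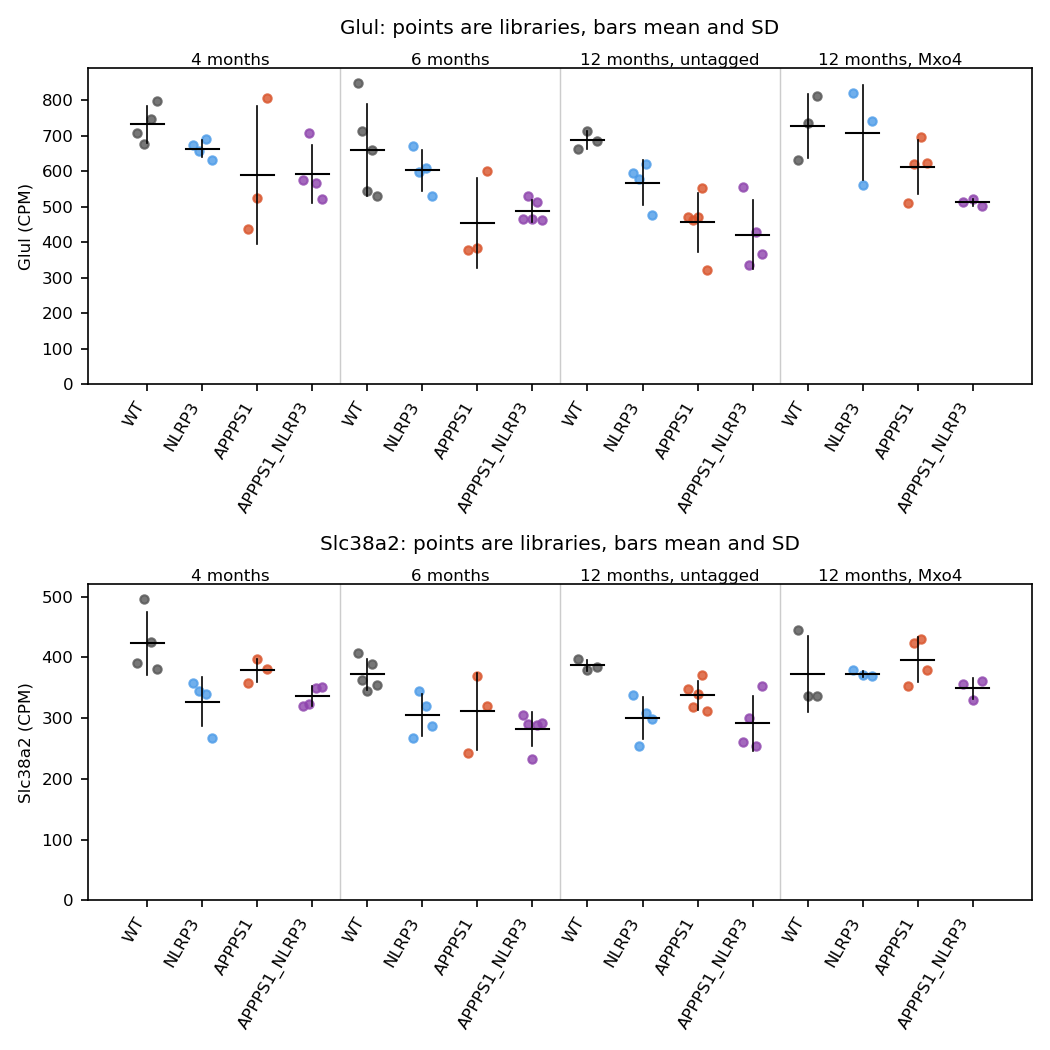
Glul (top) and Slc38a2 (bottom) in CPM on the y axis for the 16 groups on the x axis, with points for libraries and bars for mean and SD. Glul is lower in APPPS1_12m (456 ± 83.1 CPM (SD, n = 5)) than in WT_12m (687 ± 24.6 CPM (SD, n = 3)), and Slc38a2 is lower in most NLRP3 groups than in the WT groups of the same age.

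Slc1a5, an exchanger of neutral amino acids that carries glutamine into cells (chr7:16781340-16798274), differed with both the transgenes and Nlrp3. It is the least abundant of the 9, at a median of 9.18 CPM. In the Mxo4 groups without Nlrp3 it was 8.54, 11.4 and 11.7 CPM with the transgenes and 2.08, 3.60 and 5.32 CPM without them, a difference of 1.61 ± 0.33 (SE, adjusted p = 0.000777) between groups that did not overlap. This was its single call among the 8 transgene comparisons.

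With Nlrp3 intact, the Mxo4 groups held 7.31, 16.3, 16.99 and 21.9 CPM of Slc1a5 in APPPS1 and 8.46, 8.70 and 9.32 CPM in WT, a difference of 0.76 ± 0.30 (SE, adjusted p = 0.132). The low APPPS1 library is replicate 56, as for Got1, and without it the difference was 0.98 (adjusted p = 0.0197). At 12m without the tag Slc1a5 was 13.7, 14.7, 15.4, 15.5 and 15.7 CPM in APPPS1 and 5.98, 10.4 and 11.1 CPM in WT. All APPPS1 libraries were above all WT libraries there, but the difference of 0.64 ± 0.28 was not called (adjusted p = 0.108). The lowest value of all, 1.45 CPM in NLRP3_12m replicate 45, rests on 2 counts.

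Slc38a1, a sodium-coupled glutamine carrier (chr15:96571418-96642913), was higher with the transgenes in all 8 comparisons, by 0.12 to 0.33. This rests in part on the TMM scaling. Without it, the group means were nearly level in APPPS1_12m and WT_12m, at 93.7 and 93.5 CPM. They were turned round in APPPS1_NLRP3_6m and NLRP3_6m, at 99.8 and 102 CPM, and the other pairs stayed higher with the transgenes. At 12m without Nlrp3 it was 111, 114, 115 and 128 CPM with the transgenes and 87.4, 90.1, 93.4 and 104 CPM without them, a difference of 0.33 ± 0.10 (SE, adjusted p = 0.0345). The groups did not overlap, yet the call was lost in 6 of the 8 fits that leave out 1 of these libraries. Those were the fits without APPPS1_NLRP3_12m replicate 43, 44 or 46 or NLRP3_12m replicate 42, 47 or 48 (adjusted p = 0.0546 to 0.126). The call was also lost with DESeq2 (0.0673) and with the astrocyte marker sum as a further term (0.0998). In the Mxo4 groups the values were 104, 105 and 108 CPM against 83.8, 84.1 and 84.5 CPM, again without overlap, and the difference of 0.33 ± 0.12 was not called (adjusted p = 0.0946). In APPPS1_12m_Mxo4, replicate 56 was again the low library, at 77.2 CPM against 106, 112 and 119 CPM, and without it the difference from WT was 0.30 (adjusted p = 0.0457).

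**Figure D4:**
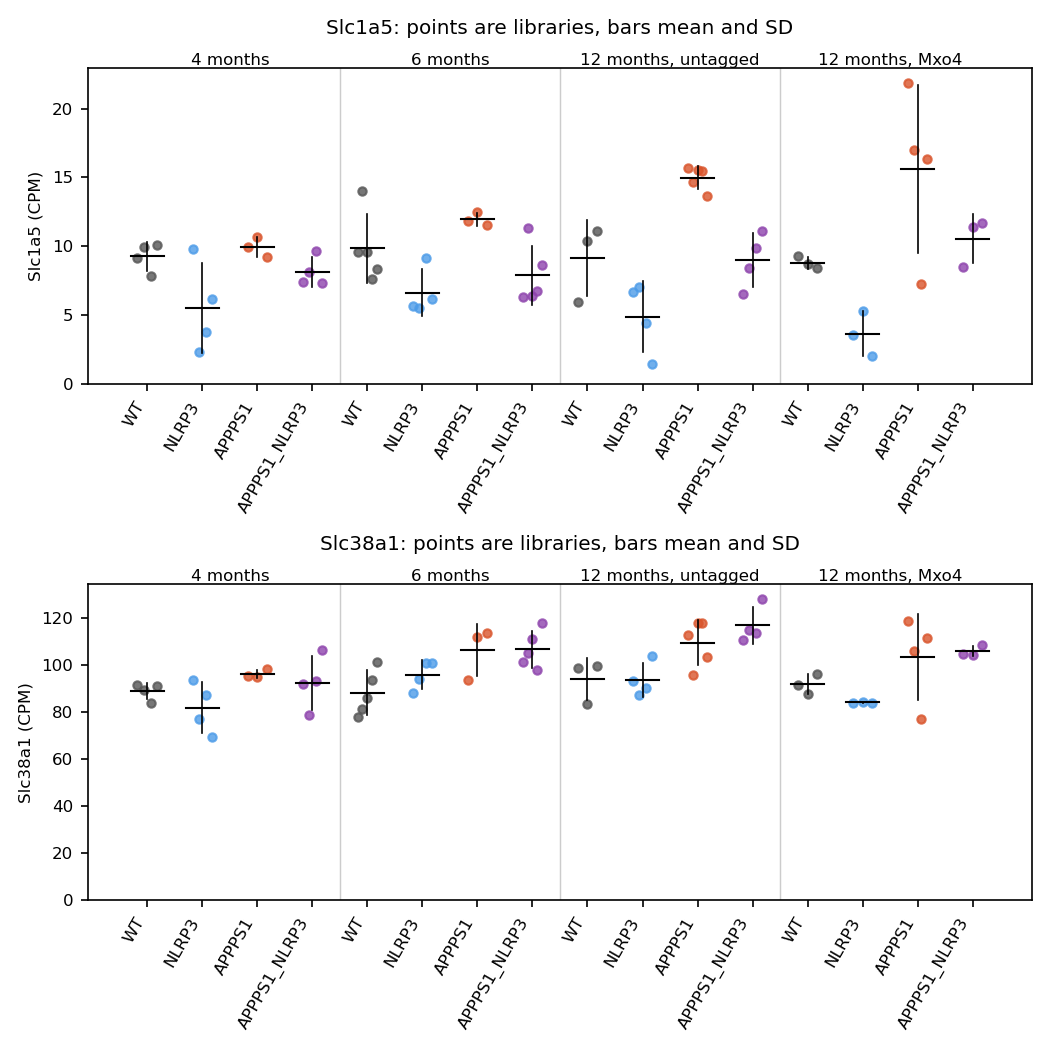
Slc1a5 (top) and Slc38a1 (bottom) in CPM on the y axis for the 16 groups on the x axis; points are libraries and bars give mean and SD. Slc1a5 is lowest in NLRP3_12m_Mxo4 (3.67 ± 1.62 CPM (SD, n = 3)), and 1 library of APPPS1_12m_Mxo4, at 7.31 CPM, lies apart from the other 3 of its group.

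Slc38a2, a related sodium-coupled carrier that cells raise when amino acids are scarce (chr15:96687392-96699730), was not called in any transgene comparison. Its widest difference was −0.28 ± 0.12 (SE, adjusted p = 0.189) at 6m in APPPS1 minus WT. There the APPPS1 libraries held 243, 320.1 and 370.0 CPM and the WT libraries 345, 355, 362, 389.7 and 407 CPM, with overlap.

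Slc1a2, the main glutamate carrier of astrocytes (chr2:102658659-102790784), spread more between libraries than any other member, with a median coefficient of variation within groups of 33.5% against 5.23% for Glud1. In NLRP3_12m it was 42.5, 113, 134 and 301 CPM, and in APPPS1_12m_Mxo4 10.5, 17.9, 21.6 and 42.97 CPM. No transgene difference was called: the 8 ran from −0.86 ± 0.47 to 0.45 ± 0.47. Its level followed the astrocyte markers: the genes most like it over the 16 group means were Aldoc (r = 0.987), Ndrg2 (0.978) and Cspg5 (0.974), of which Aldoc is 1 of the 12 markers. The summed markers were 201 to 1033 CPM in NLRP3_12m and 76.4 to 274 CPM in APPPS1_12m_Mxo4. Fewer cells of a type and less RNA per cell cannot be told apart in these libraries.

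**Figure D5:**
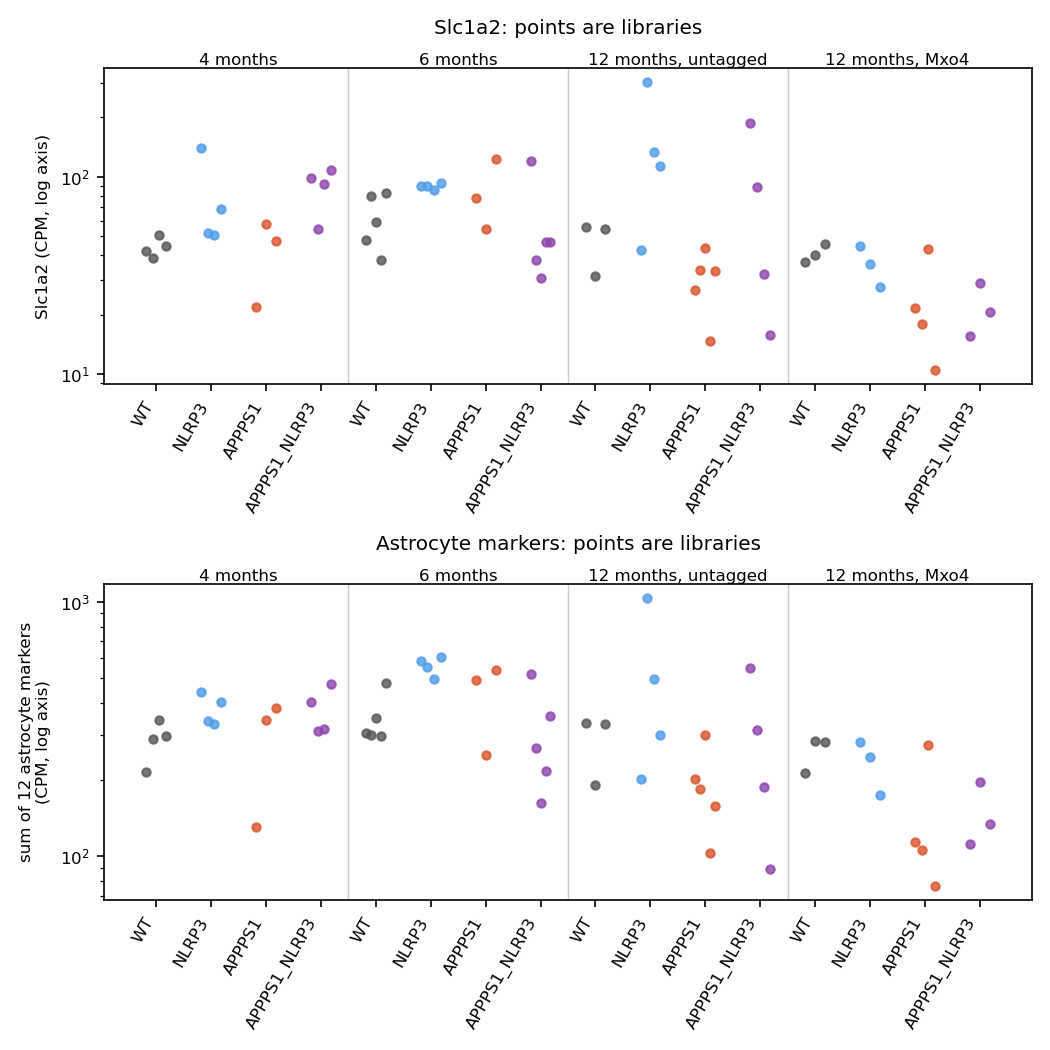
Slc1a2 (top) and the sum of 12 astrocyte markers (bottom) in CPM on log y axes for the 16 groups on the x axis; points are libraries. The library with the highest Slc1a2, 301 CPM in NLRP3_12m, also has the highest marker sum, 1033 CPM.

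The 8 transgene differences were also averaged in 1 contrast of the same fit, chosen after the data were seen, in which 34.6% of all genes were called. Here 5 of the 9 genes were called. Got1 averaged 0.97 ± 0.07 (SE, adjusted p = 4.68e-16), Slc1a5 0.63 ± 0.10 (SE, adjusted p = 1.33e-06), Got2 0.23 ± 0.04 (SE, adjusted p = 3.78e-06) and Slc38a1 0.22 ± 0.04 (SE, adjusted p = 3.98e-06), while Glul averaged −0.38 ± 0.05 (SE, adjusted p = 1.11e-08). These 5 averages were called in each of the 62 fits that leave out 1 library and in 11 of 11 other alternatives. Within number 1 of the second title number the average could not be fitted, because APPPS1_NLRP3_12m_Mxo4 has no library there. Glud1 averaged 0.03 ± 0.03, Gpt2 0.06 ± 0.06, Slc38a2 −0.09 ± 0.04 (adjusted p = 0.0772) and Slc1a2 −0.39 ± 0.17 (adjusted p = 0.0797). In the same contrast 9 of the 12 astrocyte markers were called lower and 1 higher, with a median of −0.63, and 4 of the 8 microglial markers were called lower. The part of this in the members' differences was not tested beyond the fit with the astrocyte sum as a term, in which all 5 averages were called. With that term the calls of Got2 and Slc38a1 in single transgene comparisons were lost.

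Loss of Nlrp3 changed no member past the threshold in a single comparison, while 2 glutamine carriers, Slc1a5 and Slc38a2, were lower in all 8. In NLRP3 minus WT, 0 of the 9 genes were called at 4m (0.398% of all genes), 6m (0.488%), 12m (1.59%) and in the Mxo4 groups (0.101%). In APPPS1_NLRP3 minus APPPS1, 0 were called at 4m (0.237%), 6m (0.508%), 12m (6.18%) and in the Mxo4 groups (0.337%). Of these 72 edgeR tests, 15 had an unadjusted p under 0.05, and DESeq2 called 1, Slc1a2 in APPPS1_NLRP3 minus APPPS1 at 12m (adjusted p = 0.0448).

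Slc1a5 was 2.08, 3.60 and 5.32 CPM in NLRP3_12m_Mxo4 against 8.46, 8.70 and 9.32 CPM in WT_12m_Mxo4, a difference of −1.18 ± 0.33 (SE, adjusted p = 0.21). At 4m it was 2.34, 3.82, 6.22 and 9.85 CPM in NLRP3 and 7.86, 9.18, 9.94 and 10.1 CPM in WT, a difference of −0.79 ± 0.27 (SE, adjusted p = 0.283). At 12m it was 6.55, 8.46, 9.91 and 11.1 CPM in APPPS1_NLRP3 and 13.7, 14.7, 15.4, 15.5 and 15.7 CPM in APPPS1, a difference of −0.68 ± 0.26 (SE, adjusted p = 0.0935). The Mxo4 and 12m pairs did not overlap, and at 4m 1 NLRP3 library lay among the WT libraries. Over the 8 comparisons the Slc1a5 differences ran from −1.18 to −0.26, and 6 had an unadjusted p under 0.05.

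Slc38a2 was 268, 339.8, 344 and 357 CPM in NLRP3_4m against 382, 390.1, 425 and 496 CPM in WT_4m, a difference of −0.37 ± 0.12 (SE, adjusted p = 0.184). At 6m it was 268, 287, 319.8 and 345 CPM against 345, 355, 362, 389.7 and 407 CPM, and at 12m 255, 298, 308 and 339 CPM against 380.0, 384 and 397 CPM. None of these 3 pairs overlapped, although the nearest libraries at 6m were level after rounding, with differences of −0.28 ± 0.11 at 6m and −0.34 ± 0.13 at 12m. In the Mxo4 groups the NLRP3 and WT libraries overlapped and the difference was −0.02 ± 0.13.

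Averaged over the 8 Nlrp3 differences in 1 contrast added after the data were seen, in which 12.2% of all genes were called, 3 members were called. Slc1a5 averaged −0.66 ± 0.10 (SE, adjusted p = 3.71e-06), Slc38a2 −0.22 ± 0.04 (SE, adjusted p = 0.00019) and Slc1a2 0.59 ± 0.17 (SE, adjusted p = 0.0189). Over the 6 pairs without the untagged 12m groups, where the sexes are separate, 5.03% of all genes and 2 members were called, with Slc1a5 at −0.63 ± 0.12 (SE, adjusted p = 0.000196) and Slc38a2 at −0.20 ± 0.05 (SE, adjusted p = 0.00753). Slc1a2 was 0.29 ± 0.21 (SE, adjusted p = 0.527) there. With sex as a further term over the 8 pairs, Slc1a5 was −0.56 (adjusted p = 0.00102), Slc38a2 −0.20 (adjusted p = 0.00354) and Slc1a2 0.43 (adjusted p = 0.209). With the astrocyte marker sum as a further term Slc1a2 was 0.23 (adjusted p = 0.0619). The 2 glutamine carriers kept their calls in the fits over 6 pairs and with sex, and Slc1a2 did not. Within number 2 of the second title number alone, the Slc38a2 call was lost, at −0.19 (adjusted p = 0.0756) over 8 pairs. None of the 12 astrocyte markers was called in the 8-pair contrast, where their median difference was 0.23.

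Slc1a2 came closest to a call in a single comparison at 12m, where it was 15.8, 32.04, 88.6 and 188 CPM in APPPS1_NLRP3 and 14.7, 26.6, 33.4, 33.6 and 43.5 CPM in APPPS1, a difference of 1.40 ± 0.45 (SE, adjusted p = 0.0504). The summed astrocyte markers were 89.0 to 551 CPM and 103 to 299.9 CPM in these groups. Of the APPPS1_NLRP3_12m libraries, 2 lay above every APPPS1_12m library and the other 2 did not.

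Whether the transgene difference itself depended on Nlrp3 was tested as an interaction, that is, the difference in the knockout background less the one in the intact background. In edgeR 0 of 36 tests were called and 0 had an unadjusted p under 0.05, and DESeq2 called 0. Of all genes, 0% were called at 4m, 0.0201% at 6m, 0.00503% at 12m and 0% in the Mxo4 groups. For Got1 the interaction was 0.26 ± 0.27 at 6m (95% interval −0.27 to 0.79) and −0.47 ± 0.28 at 12m (−1.03 to 0.09). For Slc1a5 in the Mxo4 groups it was 0.85 ± 0.43 (0.00 to 1.70). The calls of Glul in APPPS1 minus WT and of Slc1a5 and Slc38a1 in APPPS1_NLRP3 minus NLRP3 are therefore not shown to differ between the Nlrp3 states.

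Between ages, 8 of 108 tests were called, all 8 of them in the transgenic genotypes and 4 of them Got1. In WT 0 of 9 were called from 4m to 6m, 6m to 12m and 4m to 12m, where 0.0805%, 0% and 0.0302% of all genes were called. In NLRP3 the counts were again 0, against 0.851%, 4.2% and 0.448%. In APPPS1 they were 0, 2 and 1, against 0.312%, 15.7% and 22.4%. In APPPS1_NLRP3 they were 1, 0 and 4, against 5.67%, 1.15% and 12.1%. In WT, edgeR gave 0 of 27 tests and DESeq2 0 of 27, with 0 at an unadjusted p under 0.05; in NLRP3 both tools gave 0 of 27, with 3 at an unadjusted p under 0.05.

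Got1 rose with age in both transgenic genotypes. From its 4m levels, given above, it had risen by 1.40 ± 0.21 (SE, adjusted p = 1.49e-06) at 12m in APPPS1, and the step from 6m to 12m was 0.74 ± 0.20 (SE, adjusted p = 0.0114). The latter call was lost without APPPS1_6m replicate 22 or 23 (adjusted p = 0.0585 to 0.0666). With the astrocyte marker sum as a further term that step was 0.44 (adjusted p = 0.256); 7 of the 12 astrocyte markers were called lower in it. The 6m libraries lay between the 4m and 12m libraries without overlapping either. In APPPS1_NLRP3 the difference was 1.10 ± 0.19 (SE, adjusted p = 0.000184) from 4m to 6m and 1.26 ± 0.19 (SE, adjusted p = 8.91e-06) from 4m to 12m, with 0.16 ± 0.18 between 6m and 12m. In WT and NLRP3 the 4m to 12m differences of Got1 were 0.25 ± 0.21 and 0.40 ± 0.20, not called. Whether the difference between ages differed between genotypes was not tested.

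In APPPS1_NLRP3 from 4m to 12m, Glul fell by 0.50 on the log2 scale (adjusted p = 0.00861), Got2 rose by 0.32 ± 0.10 (SE, adjusted p = 0.0359) and Slc38a1 rose by 0.34 ± 0.10 (SE, adjusted p = 0.0191). All 4 libraries of APPPS1_NLRP3_4m were female and all 4 of APPPS1_NLRP3_12m male, so age and sex cannot be told apart in that comparison. The Got2 call was lost without APPPS1_NLRP3_12m replicate 43 or 46 or APPPS1_NLRP3_4m replicate 9, 11 or 14 (adjusted p = 0.0791 to 0.171). That of Slc38a1 was lost without APPPS1_NLRP3_12m replicate 43 or APPPS1_NLRP3_4m replicate 9 (adjusted p = 0.085 to 0.114). With the astrocyte marker sum as a further term the calls of Got2 (adjusted p = 0.0831) and Slc38a1 (0.0555) were lost too. In APPPS1 from 6m to 12m Slc1a2 fell from 54.5, 77.8 and 123 CPM to 14.7, 26.6, 33.4, 33.6 and 43.5 CPM, with no overlap and a difference of −1.504 ± 0.48 (SE, adjusted p = 0.0265). This call was lost without APPPS1_12m replicate 36, 38 or 41 or APPPS1_6m replicate 22 or 23 (adjusted p = 0.0503 to 0.186). The median of the 12 astrocyte markers was −1.21 there, and with their sum as a further term the Slc1a2 difference was −0.05 (adjusted p = 0.956).

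Between Mxo4 and untagged libraries at 12 months, 2 of 36 tests were called. In WT 0 members were called (0.227% of all genes), in NLRP3 1 (6.85%), in APPPS1 1 (6.49%) and in APPPS1_NLRP3 0 (1.18%). Both zero counts are from edgeR: in WT 0 tests had an unadjusted p under 0.05 and DESeq2 called 0, and in APPPS1_NLRP3 2 did and DESeq2 called 1. The summed level of 10 immediate-early response genes, which cells raise on handling, was 13463 to 28004 CPM in the Mxo4 libraries of APPPS1 and 12831 to 16840 CPM in the untagged ones, and 4 of the 10 were called higher. In NLRP3 it was 26526 to 35510 CPM against 9442 to 12470 CPM, with 9 of the 10 called higher. Its part in the differences below was not tested.

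Glul was higher in the Mxo4 libraries of APPPS1, at 510.5, 621, 624 and 695 CPM against 323, 462, 471, 472 and 553 CPM untagged, a difference of 0.41 ± 0.13 (SE, adjusted p = 0.0415) with some overlap. Without replicate 56, the highest of the Mxo4 libraries, it was 0.26 (adjusted p = 0.262). Among the fits that leave out 1 library, the call was lost without APPPS1_12m replicate 35, 38 or 41 or APPPS1_12m_Mxo4 replicate 56, 58 or 59 (adjusted p = 0.0556 to 0.262). It was also lost with sex as a further term, at 0.35 (adjusted p = 0.175), and with the first title number as one, at 0.39 (adjusted p = 0.123). The untagged APPPS1 libraries were 5 female, and the Mxo4 libraries 1 female and 3 male. The Glul differences in NLRP3 and APPPS1_NLRP3 were 0.40 ± 0.15 and 0.41 ± 0.15, not called, and that in WT was 0.00 ± 0.16.

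Slc1a2 was lower in the Mxo4 libraries of NLRP3, at 27.6, 36.3 and 44.5 CPM against 42.5, 113, 134 and 301 CPM untagged, a difference of −1.97 ± 0.55 (SE, adjusted p = 0.0205). The call was lost without NLRP3_12m replicate 47 or NLRP3_12m_Mxo4 replicate 50, 51 or 55 (adjusted p = 0.0614 to 0.199). The summed astrocyte markers were 174 to 281 CPM in the Mxo4 libraries and 201 to 1033 CPM in the untagged ones, 2 of the 12 were called lower, and with the sum as a further term the Slc1a2 difference was −0.68 (adjusted p = 0.148). The untagged libraries were all male and the Mxo4 libraries 1 female and 2 male.

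A list of 40 other genes of glutamine, glutamate and linked amino acid metabolism, all of which were tested, places the members in their pathway. In APPPS1 minus WT, 0 were called at 4m, 2 higher and 1 lower at 6m, 5 higher and 3 lower at 12m, and 3 higher and 1 lower in the Mxo4 groups. In APPPS1_NLRP3 minus NLRP3, 0 were called at 4m, 2 higher and 2 lower at 6m, 3 higher and 1 lower at 12m, and 1 higher and 0 lower in the Mxo4 groups. The medians of the 40 differences at 12m were −0.17 in APPPS1 minus WT and −0.07 without Nlrp3, against −0.07 and −0.05 over all genes. The 8 of 40 called at 12m in APPPS1 minus WT stand beside 18.1% of all genes. In the average of the 8 transgene differences 8 of the 40 were called higher and 11 lower, where 34.6% of all genes were called, and in that of the 8 Nlrp3 differences 1 was called higher and 10 lower, where 12.2% were called.

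Psat1, the aminotransferase of serine synthesis, which uses glutamate as its amino donor, rose in each of the 6 comparisons from 6m on, by 2.13 to 2.93. At 12m in APPPS1 minus WT it went from 31.7 ± 2.12 to 238 ± 59.6 CPM (SD, n = 3 and 5). Slc38a10, a further member of the glutamine carrier family, rose by 0.50 to 0.68 in 5 comparisons. Slc25a13, the mitochondrial aspartate-glutamate carrier that works with the Got enzymes in the malate-aspartate shuttle, rose by 0.94 ± 0.29 (SE, adjusted p = 0.0315) at 12m without Nlrp3 and by 1.37 ± 0.31 (SE, adjusted p = 0.00327) in APPPS1 minus WT with the tag. Slc7a5, a large neutral amino acid exchanger that can trade glutamine for leucine, fell by 0.72 and 0.64 on the log2 scale at 6m. Gclc, the catalytic subunit of the first enzyme of glutathione synthesis, which consumes glutamate, fell by 0.61 at 12m in APPPS1 minus WT.

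Among the Nlrp3 comparisons, Slc1a3, the other main glutamate carrier of astrocytes, rose in all 8, by 2.14 to 3.19. Its group means were 1628 to 2382 CPM in the knockout groups and 222 to 370.3 CPM in the others. Slc1a2, the member of the same family, was called by edgeR in none of the 8 and by DESeq2 in 1, with differences from −0.56 to 1.57. Gclc fell by 0.56 to 0.76 in the 4 comparisons of NLRP3 minus WT. Slc7a7, a carrier subunit that exchanges glutamine for arginine, fell by 0.47 and 0.52 at 6m, and Slc38a5, a further glutamine carrier, fell by 1.91 at 12m in APPPS1_NLRP3 minus APPPS1.

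Over the 16 group means, which are not independent because many of them share a genotype or an age, the 9 members fell into patterns. Got1 and Got2 went together (Pearson r = 0.90 on log2 CPM), as did Got1 and Slc38a1 (0.84), and Glul ran against Slc38a1 (−0.88) and Got1 (−0.78). Among 8779 named protein-coding genes of at least 10 CPM, the 3 most like Got1 were Cd9 (r = 0.989), Ergic3 (0.984) and Sdf4 (0.984). Those most like Glul were its overlapping neighbour Teddm2 (0.978), Dapp1 (0.943) and Zfp36l2 (0.942). For Got2 they were Clptm1l (0.961), Clptm1 (0.955) and Pigs (0.952), and for Slc38a1 they included Apbb2 (0.933) and Actr3b (0.933). The best matches of the rest were weaker: Osbpl11 for Slc38a2 (0.919), Tmco3 for Slc1a5 (0.869), Slamf6 for Glud1 (0.824) and Fam53c for Gpt2 (0.788). These values describe likeness of level over groups of 3 to 5 libraries that share batches and controls.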

How the data were processed

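The deposited values were raw gene counts, whole numbers in 1 matrix with a column per library, which the authors made with Trimmomatic, TopHat and HTSeq on mm10 per the submitters' processing notes, with no versions given. Per the labels' protocols, SMART-Seq v4 libraries from 10 ng of RNA, prepared in 2 batches, were read as 125 bp pairs on a HiSeq instrument. There are no molecular identifiers, so counts and depths cover counting error only. Symbols and positions are from GENCODE vM21 (GRCm38, equal to mm10) and matched 53706 of 53801 identifiers; start regions are from RefSeq (GRCm38.p6).

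Counts of all 62 libraries were fitted at once with the edgeR 4.0.16 quasi-likelihood F test (R 4.3.3, limma 3.58.1), with TMM factors and model terms for the group and for the second title number. filterByExpr (minimum count 10, minimum total 15) left 19865 genes. p-values are two-sided and adjusted by Benjamini-Hochberg over all genes of a comparison, with calls at an adjusted p under 0.05. Effects are log2 differences with standard errors (the difference over the root of its F statistic). There were 36 comparisons, and 3 averages were added after the data were seen. Levels used libraries of at least 100000 counts. Ratios were tested by exact permutation.

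The members and gene lists were chosen with earlier results of these data known. Named genes were the 9 members, up to 3 called genes of the pathway list with the smallest adjusted p in a comparison, and the 3 genes most like each member over group means, of which 1 is not reported here. Alternatives were DESeq2 1.42.0, RLE size factors, no filter, other terms (first title number, sex, astrocyte marker sum), each second title number alone, and leaving out libraries. On simulated data made for APPPS1 minus WT at 12m, the edgeR test recovered 65% of 100 genes changed by 1 and 100% of 100 genes changed by 2 on the log2 scale. It also called 5 unchanged genes. Every simulated gene had the same dispersion, and none differed by title number, sex or other cell types. The shares recovered therefore need not hold for the real libraries.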

Additional observations from a re-analysis of the deposited data

Results flagged for a closer look

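Each of the 9 genes in each group of 4 or 5 libraries was tested for a library far from the rest of its group. Of these 90 sets, 3 held one, where chance gives about 1 in 20. The sets share libraries and are not independent. Got1 in NLRP3_12m replicate 45 stood at 73.4 CPM, against 41.6 to 46.8 CPM in the other 3 libraries; this library has 1394435 counts in all. Slc38a2 in APPPS1_NLRP3_6m replicate 31 stood at 233 CPM, against 288 to 305 CPM in the other 4. Slc1a2 in APPPS1_NLRP3_6m replicate 28 stood at 119.6 CPM, against 30.8 to 46.96 CPM in the other 4.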

How the results depend on the processing

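No paired analysis was possible because no 2 libraries carry the same replicate number. With the libraries of second title number 1 alone, the transgene comparisons gave 5 calls of 63 tests in place of 12 of 72, the age comparisons 3 in place of 8, and the Mxo4 comparisons 0 of 27 in place of 2. With second title number 2 alone, the age comparisons gave 5 and the Nlrp3 comparisons 1 in place of 0. Adding the first title number to the model, the age comparisons gave 5 and the Mxo4 comparisons 0. The Nlrp3 comparisons gave 1 call with no filter on low counts, without the library numbered 56 and with DESeq2, which was Slc1a2 in APPPS1_NLRP3 minus APPPS1 at 12m in each, while with second title number 2 alone it was Got1 in the Mxo4 groups. The Mxo4 comparisons gave 1 call with no filter, with no second title number, with sex or the astrocyte marker sum as a further term, without libraries under 7000000 counts, and without the library numbered 56. Leaving out 1 library at a time, with the genes tested and the dispersion trend kept, gave 10 to 15 calls for the transgene comparisons, 0 to 1 for Nlrp3, 6 to 9 for age, 1 to 3 for Mxo4, 0 for the interactions and 10 to 11 for the averages (10 in the fit of all libraries). A full refit without the library numbered 56 gave 16 transgene calls. The share of all genes called in that refit is not given here. Of the 32 called results, 1045 alternatives were fitted. Among these, 938 kept direction and call, 107 kept the direction and lost the call, and 0 turned round. Each average over 8 pairs adds 62 fits that leave out 1 library, against 6 to 9 for a single comparison, so the averages weigh heavily. Only 15 of the 32 results were called in all of their alternatives. The log2 ratio of Got1 to Got2 in APPPS1_NLRP3 minus NLRP3 at 4m, 0.0793, ran from −0.0141 (without NLRP3_4m replicate 10) to 0.151 (without APPPS1_NLRP3_4m replicate 13) when 1 library was left out. Without TMM scaling, 22 of 144 group levels moved by over 1 SD. Depth limits Slc1a5 most, whose lowest library holds 2 counts. The causes of these shifts were not tested.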
